A study of Mus musculus with 48 samples.

Results

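The genes described here are the members of the cadherin superfamily that the authors' deposited tables of mouse cerebellar messenger RNA list. They were taken by name and had to be protein-coding: protocadherins (Pcdh), classical and other cadherins (Cdh and a digit), flamingo cadherins (Celsr), Dachsous (Dchs), desmocollins and desmogleins (Dsc, Dsg), calsyntenins (Clstn) and the giant Fat cadherins. The table that compares conditional knockout of Chd4 (cKO) with wild type (WT) lists 5508 genes, and 34 of them are members. The table that compares rotarod training with rest lists 908 genes, and 2 of them are members, Pcdh1 and Fat1, which are also among the 34. Both tables together hold 6094 genes. In the study's other gene tables, from a pull-down of tagged ribosomes, 38 and 51 genes are listed and no member.

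The series has 48 samples, and 16 of them carry the values used here. Each is RNA from cerebellum at postnatal days 27 to 28: 4 WT, 4 Chd4 cKO, 4 from WT mice trained on a rotarod (a turning rod that tests balance) and 4 from WT mice at rest. Chd4 is the ATPase of the nucleosome remodeling and deacetylase complex NuRD. The labels name neither the Cre driver of the knockout nor the length of the training. They do not say that each library is a separate animal, so the p-values measure the spread between these libraries. Depth was 13.7 to 15.6 M reads in the WT and cKO libraries and 13.7 to 16.7 M in the rest and rotarod libraries. Chd4 itself fell by 0.44 ± 0.06 (SE, log2, n = 4 per genotype), and its cKO libraries (7.90 to 8.06 log2 CPM) lay below its WT libraries (8.31 to 8.45). Of 10 granule neuron markers 6 are listed and of 10 Purkinje cell markers 8, where 20.3% of all features tested are. A gene is listed only if the authors' test called it different between the genotypes, so these counts do not check the tissue. Among the listed markers of these cerebellar neurons, Gabra6 (granule) and Pcp2 (Purkinje) had mean WT levels of 9.40 and 8.09 log2 CPM.

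Cadherins bind one another across the gap between cells through repeated extracellular domains that need calcium. Classical cadherins hold junctions and synapses together through catenins, desmosomal cadherins anchor to intermediate filaments, and the giant Fat and Dachsous proteins and the flamingo cadherins pass on information about tissue polarity. Clustered protocadherins are encoded in alpha, beta and gamma arrays of tandem genes, and each neuron uses a few of the alternative promoters, which gives it a surface identity. The alpha and gamma genes splice their own first exon to shared constant exons, whereas each beta gene (Pcdhb) is a single exon of its own. CTCF, cohesin and DNA methylation are known to govern the choice of promoter in these arrays.

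Levels are given in log2 CPM, read counts scaled to library size on a log2 scale, as the authors deposited them, and differences are cKO minus WT, or rotarod minus rest, in the same unit. Only genes that reached an adjusted p under 0.05 in the authors' own test are in these tables, so each member differed in that test by the way it was selected, and a gene that is absent has no value here. Of 27080 features tested, the authors' test called 20.3% in the knockout comparison, 11.0% higher and 9.30% lower. A second test, limma, was fitted to the 5508 listed genes only, since the other features have no values. With adjustment over 27080 features it passed 3579 listed genes. This number is 13.2% of the features tested, 8.18% higher and 5.04% lower, and not a pass rate over features that were fitted. Limma uses the same libraries and is no independent evidence. Below, a gene "rose" or "fell" where it passed limma at an adjusted p under 0.05. In bulk tissue, fewer cells of a type and less RNA per cell cannot be told apart.

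Most listed members were lower in cKO cerebella. Of the 34, 27 were lower and 7 higher, with a median difference of -0.40, while the median of all 5508 listed genes was 0.21. By limma 18 members fell and 5 rose, 67.6% of the 34, close to the 65.0% of all 5508 listed genes that passed. With the libraries centred on their medians the split was 23 lower and 3 higher. These medians are over the listed genes only, of which 2990 were higher and 2518 lower. Centring moved the median difference of the listed genes by -0.10, so this setting is not a neutral check of the normalization. The members just inside the authors' threshold were Pcdhb4 and Pcdhb12, with adjusted p of 0.0459 and 0.0498 in the authors' deposited table. Among members nearest limma's threshold, Cdh2 was inside it (adjusted p = 0.0419) and Pcdhb8 outside it (adjusted p = 0.0577).

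**Figure D1:**
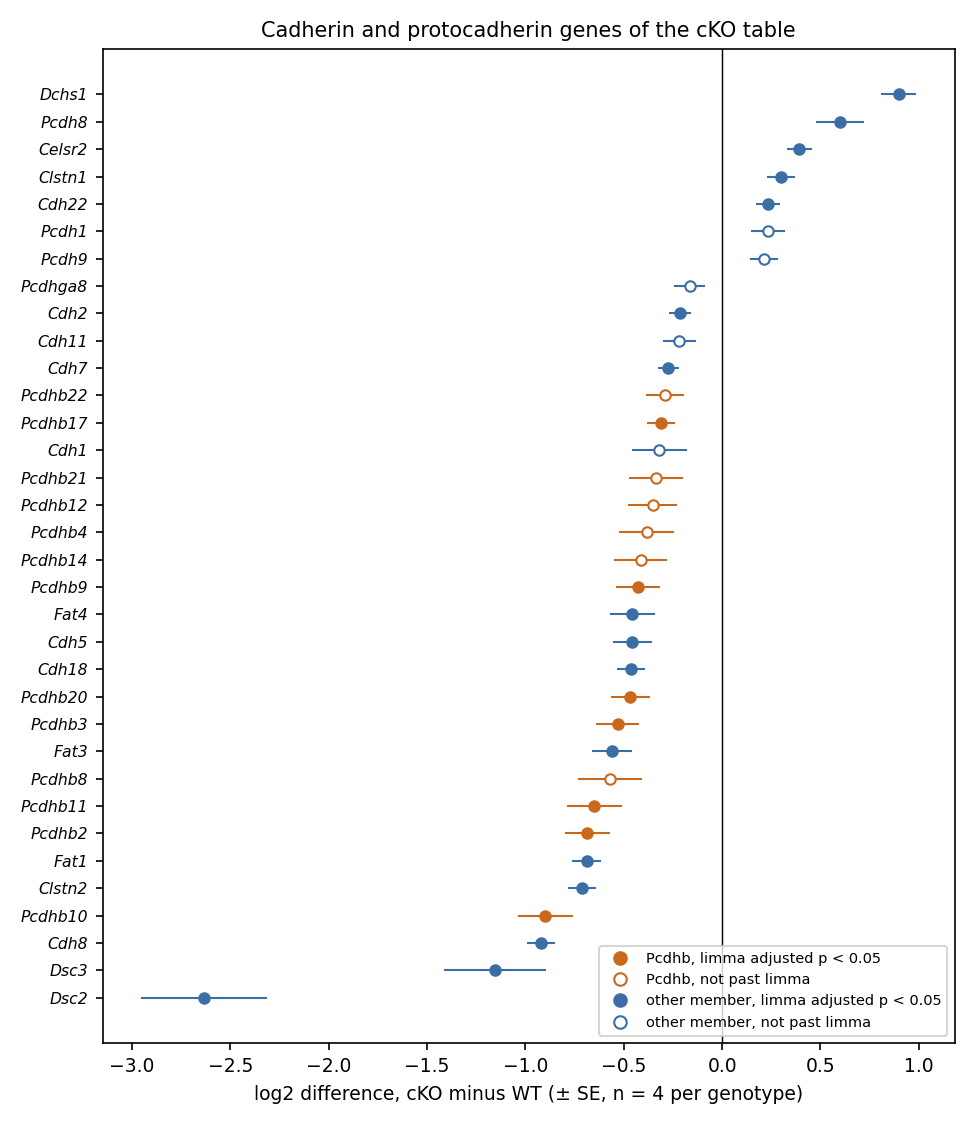
The log2 difference, cKO minus WT, of the 34 members on the horizontal axis with its SE (n = 4 per genotype); orange points are Pcdhb genes, blue points other members, and filled points passed limma. All 13 Pcdhb genes lie left of 0, and the other 21 members run from -2.63 (Dsc2) to 0.90 (Dchs1).

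Set against the genes that RefSeq holds for mouse (assembly GRCm38.p6), the listed members were spread unevenly. These shares are given as a description, since listing is itself the authors' call. Of 22 Pcdhb genes, 13 are in the table (59.1%), all of them lower. Of 14 Pcdha genes none is listed, and of 21 Pcdhg genes 1 is. Of the 56 superfamily genes outside the clusters, 20 are listed (35.7%), 13 lower and 7 higher. Of 21900 protein-coding genes in the same assembly 4777 are listed (21.8%), 10.3% lower and 11.5% higher. How reads that match several genes were counted is not stated in the labels or headers. Pcdhb genes resemble one another in sequence and the alpha and gamma genes share exons, so values of single clustered genes are uncertain where reads could be split between copies.

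The 13 listed Pcdhb genes were selected by their difference between these same libraries, so their sum is a description and not a measure of the whole cluster, of which 9 genes have no value. The summed level of the 13 was 107.4, 125.5, 113.5 and 108.8 CPM in WT libraries 1 to 4 and 76.8, 85.2, 91.2 and 82.2 CPM in cKO libraries 1 to 4. The groups did not overlap. The means were 113.8 ± 8.23 and 83.9 ± 6.00 CPM (SD, n = 4), so the cKO mean of this sum was 73.7% of the WT mean. All 13 genes were below their own WT mean in each of the 4 cKO libraries. In WT libraries 1 to 4, the number below that mean was 11, 2, 6 and 8. These sums rest on 1054 to 1274 reads in a cKO library and 1603 to 1766 in a WT library.

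By limma 7 of the 13 fell: Pcdhb10, Pcdhb2, Pcdhb11, Pcdhb3, Pcdhb20, Pcdhb9 and Pcdhb17. This share, 53.8%, is close to the 54.2% of all 2518 lower genes in the table that passed. The other 6 (Pcdhb4, Pcdhb8, Pcdhb12, Pcdhb14, Pcdhb21 and Pcdhb22) had differences of -0.57 to -0.29 and did not pass. The WT and cKO libraries did not overlap for 8 of the 13. For all listed genes the count was 4294 of 5508 (78.0%), so this share is not high in such a table. Pcdhb genes are among the less abundant genes listed, with a median mean level of 2.72 log2 CPM against 5.88 for the other members. Without cKO library 1 or without cKO library 4, limma passed 4 of them. With the libraries centred on their medians it passed 11.

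Pcdhb17 was the most abundant of them. It stood at 4.19, 4.38, 4.14 and 4.16 log2 CPM in WT libraries 1 to 4 and at 3.81, 3.98, 3.92 and 3.93 in cKO libraries 1 to 4. All cKO libraries lay below all WT libraries, and Pcdhb17 fell by 0.31 ± 0.07 (limma adjusted p = 0.0201). That call was lost without cKO library 1 or 3 (differences of -0.28 and -0.31).

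Pcdhb20 stood at 3.80, 4.10, 3.89 and 3.71 log2 CPM in WT and at 3.38, 3.60, 3.37 and 3.29 in cKO. Again the groups were apart, and it fell by 0.47 ± 0.10 (limma adjusted p = 0.0175), a call lost without cKO library 3 or 4 (differences of -0.45 and -0.43).

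For Pcdhb14, WT libraries held 3.73, 3.86, 3.65 and 3.53 log2 CPM and cKO libraries 3.13, 3.03, 3.64 and 3.31. The value of cKO library 3 lay within the WT range, and the difference of -0.41 ± 0.13 did not pass limma (adjusted p = 0.0926), but did without that library (a difference of -0.53). Pcdhb22 showed the same arrangement, with 3.46, 3.76, 3.48 and 3.60 log2 CPM in WT and 3.16, 3.23, 3.50 and 3.24 in cKO. Its difference was -0.29 ± 0.10, and -0.37, past limma, without cKO library 3.

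For Pcdhb9, WT libraries held 3.46, 3.50, 3.30 and 3.16 log2 CPM and cKO libraries 2.70, 3.12, 2.89 and 3.0. The highest cKO library was just under the lowest WT library. Pcdhb9 fell by 0.43 ± 0.11 (limma adjusted p = 0.0378), and the call held in only 2 of the 8 fits that left out a library: those without WT library 4 and without cKO library 2. For Pcdhb12, WT libraries held 2.97, 3.17, 2.78 and 3.03 log2 CPM and cKO libraries 2.39, 2.50, 2.83 and 2.82. Its groups overlapped, with a difference of -0.35 ± 0.12 (limma adjusted p = 0.123).

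The largest difference in the cluster was that of Pcdhb10, singled out here after its values were seen. Its WT libraries held 2.53, 2.85, 2.77 and 2.69 log2 CPM and its cKO libraries 1.80, 1.81, 2.15 and 1.48, which is 380 reads over the WT group against 197 over the cKO group. It fell by 0.90 ± 0.14, which left 0.536 of the WT level (limma adjusted p = 0.00356). Pcdhb2 fell by 0.69 ± 0.11, Pcdhb11 fell by 0.65 ± 0.14 and Pcdhb3 fell by 0.53 ± 0.11. The call of Pcdhb11 was lost without any 1 of WT libraries 2, 3 and 4 or cKO libraries 1 and 4, with differences of -0.64 to -0.61. For Pcdhb8 (-0.57 ± 0.16), Pcdhb4 (-0.38 ± 0.14) and Pcdhb21 (-0.34 ± 0.14), limma gave adjusted p of 0.0577, 0.144 and 0.206. Pcdhb8 passed without cKO library 2 (-0.72), and Pcdhb4 without WT library 1 (-0.50).

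**Figure D2:**
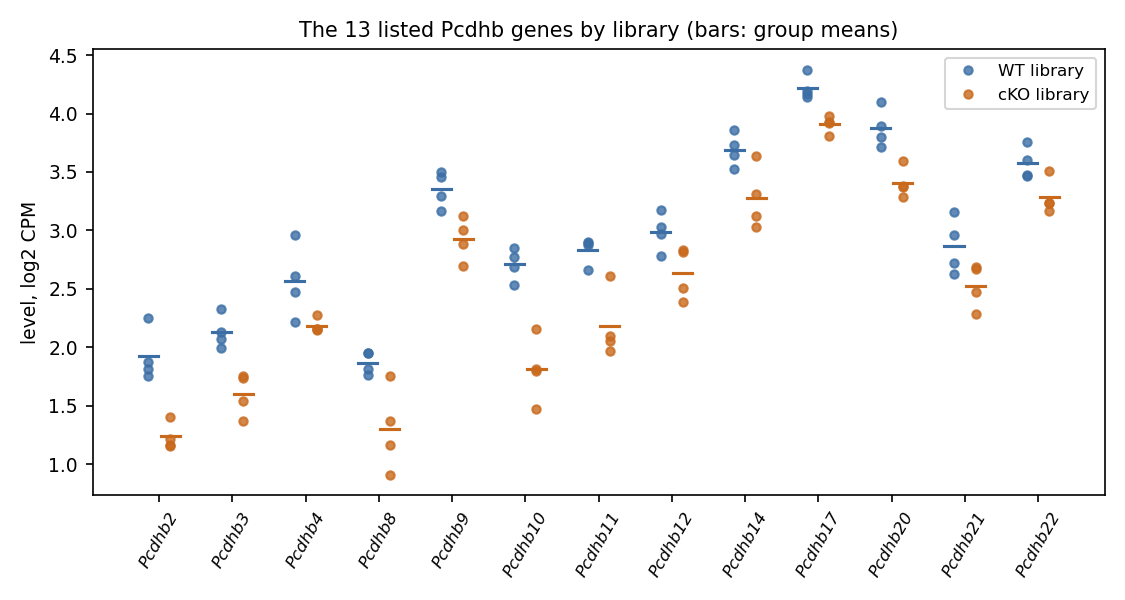
Level in log2 CPM (vertical axis) of each of the 13 listed Pcdhb genes in the 4 WT (blue) and 4 cKO (orange) libraries, with a bar at each group mean, in the order of the genes in the cluster. Every cKO mean lies below its WT mean, and for 5 of the 13 genes, Pcdhb4, Pcdhb12, Pcdhb14, Pcdhb21 and Pcdhb22, the 2 groups overlap.

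Per kilobase of gene, WT levels of the Pcdhb genes ran from 1.13 ± 0.12 CPM per kb for Pcdhb3 to 5.66 ± 0.44 for Pcdhb17 (SD, n = 4). In descending order the genes between them were Pcdhb20 (4.30 ± 0.52), Pcdhb22 (3.86), Pcdhb14 (3.73), Pcdhb9 (3.32), Pcdhb21 (2.67), Pcdhb12 (2.58), Pcdhb10 (2.26), Pcdhb11 (1.94), Pcdhb4 (1.59), Pcdhb8 (1.51) and Pcdhb2 (1.33). Pcdhb17 was above Pcdhb20 by more than the sum of their SDs, and every other pair of neighbours in the order differed by less than that sum. In cKO the levels ran from 0.77 ± 0.10 (Pcdhb3) to 4.55 ± 0.23 (Pcdhb17), with Pcdhb17 again highest.

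Along the cluster the listed genes were not confined to an end. They are the genes Pcdhb2 to Pcdhb4, Pcdhb8 to Pcdhb12, Pcdhb14, Pcdhb17 and Pcdhb20 to Pcdhb22, and the 9 in between or before them have no value. Few genes next to the protocadherin clusters have a value. Of 25 protein-coding genes that are no clustered protocadherins, 10 on each side and 5 within the alpha to gamma arrays in the RefSeq order, 5 are listed, all higher in cKO, and 20 are not listed. The share listed is close to the 20.3% over all features tested. E230025N22Rik, before the alpha array, rose by 2.14 on the log2 scale and Dnd1 by 0.46. Slc25a2, a mitochondrial carrier gene within the arrays, was higher by 0.99, Pcdh1 by 0.23 and Rnf14 by 0.22, none of these 3 past limma.

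**Figure D3:**
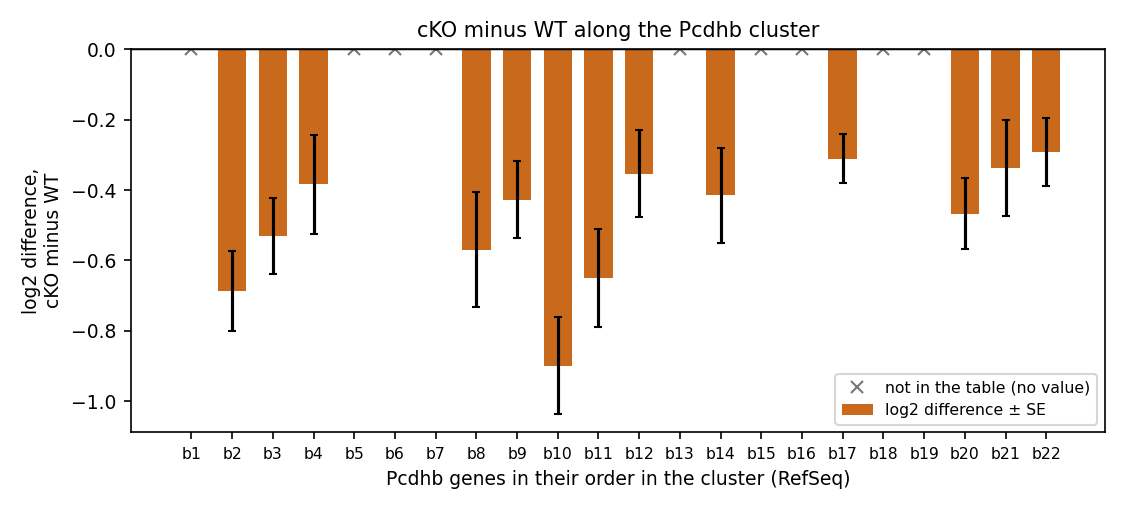
The log2 difference, cKO minus WT, with its SE (n = 4 per genotype) for the 22 Pcdhb genes in their RefSeq order; crosses mark genes that the table does not list. Bars run from -0.29 (Pcdhb22) to -0.90 (Pcdhb10) and the 13 listed genes are spread along the row.

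The single gamma row, named Pcdhga8, had levels of 9.66, 9.79, 9.57 and 9.61 log2 CPM in WT and 9.57, 9.62, 9.36 and 9.42 in cKO. The groups overlapped, and the difference of -0.17 ± 0.08 did not pass limma (adjusted p = 0.333). The gene identifier of this row, ENSMUSG00000023036, belongs to Pcdhgc4 in the reference gene names. It has 47810 reads over the WT group. Whether they include reads of the constant exons that all gamma genes share was not tested.

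Compared with the other members, the Pcdhb genes were alike in direction but not clearly apart in size. Their median difference was -0.43 (range -0.90 to -0.29), that of the other 21 members -0.27 (range -2.63 to 0.90) and that of all 2518 listed genes that were lower -0.32. The Pcdhb median lay 0.15 below that of the other members, with an SD of 0.10 for this gap over the 4 cKO libraries. This SD leaves out the spread of the WT libraries. All 13 Pcdhb genes were lower, while 7 of the other 21 members were higher. The gap therefore mixes direction with size and does not compare sizes alone. The gap was -0.24 without WT library 1. Per cKO library the Pcdhb median was -0.58, -0.38, -0.41 and -0.39 from the WT mean, and that of the other members -0.26, -0.29, -0.26 and -0.28.

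The giant cadherins moved in both directions. Fat1, a receptor of the Fat family that acts on the actin cytoskeleton, held 9.15, 9.37, 9.46 and 9.30 log2 CPM in WT and 8.71, 8.60, 8.59 and 8.63 in cKO. Each cKO library was lower than each WT library, and Fat1 fell by 0.69 ± 0.07, to 0.621 of WT (limma adjusted p = 0.000531). Dchs1, the Dachsous ligand of Fat4, went the other way, with 4.93, 5.10, 4.85 and 4.76 log2 CPM in WT and 5.75, 5.86, 5.68 and 5.94 in cKO. It rose 1.86-fold (0.90 ± 0.09, limma adjusted p = 0.000342), the largest rise among the members.

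Fat3, which shapes the dendrites of retinal amacrine cells, held 6.12, 6.42, 6.44 and 6.31 log2 CPM in WT and 5.52, 5.83, 5.85 and 5.86 in cKO. It fell by 0.56 ± 0.10 with no overlap (limma adjusted p = 0.00791). Fat4, the receptor for Dchs1, ranged from 3.32 to 3.60 log2 CPM in WT and from 2.79 to 3.27 in cKO, so ligand and receptor differed in opposite directions. Fat4 fell by 0.46 ± 0.11 (limma adjusted p = 0.0342), a call lost without any 1 of WT libraries 1, 2 and 4 or cKO libraries 1 and 4 (differences of -0.45 to -0.38). Fat2, a giant cadherin of granule neurons, and Dchs2 are not listed.

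Celsr2, a flamingo cadherin with a G-protein-coupled receptor domain, rose. It held 8.11, 8.23, 8.29 and 8.12 log2 CPM in WT and 8.68, 8.54, 8.51 and 8.60 in cKO, with no overlap and a difference of 0.39 ± 0.06 (limma adjusted p = 0.00452). Its relatives Celsr1 and Celsr3 are not listed. Of 13 partners in planar polarity, 4 are listed, where 20.3% of all features tested are. All 4 passed limma, as did 65.0% of all listed genes. Ankrd6, Ptk7 and Vangl2 rose by 0.75 ± 0.11, 0.66 ± 0.07 and 0.37 ± 0.09. Fjx1, a kinase of the Fat and Dachsous domains, fell by 0.43 ± 0.09. The listed genes of this set add up to 74.3 to 82.5 CPM in WT and 85.0 to 95.3 CPM in cKO libraries.

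Of 14 type II cadherins, which sort neurons into nuclei and layers, 6 are listed, 5 lower and 1 higher, and 8 have no value. By limma 4 fell and 1 rose. For comparison, 20.3% of all features tested are listed, and 65.0% of all listed genes passed limma. Cdh8 held 5.87, 5.70, 5.72 and 5.89 log2 CPM in WT and 4.91, 4.84, 4.99 and 4.76 in cKO. The groups were almost a whole log2 unit apart with no overlap, and Cdh8 fell by 0.92 ± 0.07, to 0.529 of WT (limma adjusted p = 0.000109). Cdh18 held 5.93, 5.87, 5.80 and 6.01 in WT and 5.35, 5.56, 5.49 and 5.36 in cKO and fell by 0.46 ± 0.07 (limma adjusted p = 0.0033). Cdh7 held 6.21, 6.12, 6.08 and 6.13 in WT and 5.81, 5.84, 5.94 and 5.85 in cKO and fell by 0.27 ± 0.05 (limma adjusted p = 0.00998). Cdh22 was the exception among them, with 6.88, 7.05, 6.94 and 6.87 log2 CPM in WT and 7.22, 7.23, 7.09 and 7.14 in cKO. Its rise of 0.23 ± 0.06 (limma adjusted p = 0.0399) was lost in 6 of the 8 fits that left out a library, all but those without WT library 2 or cKO library 3, with differences of 0.21 to 0.24. It was also lost, at 0.14, with the libraries centred on their medians.

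Cdh5, the cadherin of endothelial junctions, held 4.58, 4.39, 4.12 and 4.25 log2 CPM in WT and 4.0, 3.84, 3.82 and 3.84 in cKO. It fell by 0.46 ± 0.10 (limma adjusted p = 0.0194), a call lost without WT library 2 or any 1 of cKO libraries 2, 3 and 4 (differences of -0.45 to -0.44). Over all features tested 9.30% are listed as lower, and 54.2% of these passed limma. Endothelial markers moved with Cdh5: 6 of 12 are listed, all lower, with a median of -0.40, and 3 fell by limma (Flt1, Emcn and Tek). Their listed genes add up to 118.2 to 149.5 CPM in WT and 86.9 to 112.3 CPM in cKO libraries. The part of this shift in the Cdh5 value was not tested. Cdh11, a cadherin of mesenchymal and meningeal cells, held 4.93, 4.73, 4.57 and 4.68 in WT and 4.50, 4.62, 4.47 and 4.45 in cKO. Its groups overlapped and its difference of -0.22 ± 0.08 did not pass limma (adjusted p = 0.162). Of 12 meningeal markers 8 are listed, all lower, 1 past limma, and they add up to 903.9 to 1157 CPM in WT and 815.7 to 887.3 in cKO.

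Among classical type I cadherins, Cdh2 (N-cadherin, of synapses and neural progenitors) held 6.77, 6.72, 6.61 and 6.69 log2 CPM in WT and 6.53, 6.54, 6.47 and 6.41 in cKO. It fell by 0.21 ± 0.06 (limma adjusted p = 0.0419) without overlap, but the call held in only 1 of the 8 fits that left out a library (that without WT library 3), and the other 7 gave differences of -0.23 to -0.19. Cdh1 (E-cadherin, of epithelia) ranged from 3.78 to 4.13 log2 CPM in WT and from 3.35 to 3.97 in cKO. These ranges overlap, and the difference was -0.32 ± 0.14 (limma adjusted p = 0.27). Cdh3, Cdh4 and Cdh15 are not listed. Of 16 catenins and desmosome linkers, through which these cadherins reach the cytoskeleton, only the plakophilin gene Pkp2 is listed. It rose by 1.38 ± 0.08, 2.60-fold. The share listed over all features tested is 20.3%.

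The desmocollins, adhesion proteins of desmosomes, had the largest log2 differences of the members, on few reads. Dsc2 held 2.07, 1.93, 2.42 and 2.12 log2 CPM in WT and -0.09, -1.56, -0.11 and -0.24 in cKO. This is 61, 51, 81 and 62 reads against 11, 3, 11 and 11, a 7.08-fold ratio of the read sums, with every cKO library far below every WT library. The log2 difference was -2.63 ± 0.32 (limma adjusted p = 0.00106). Dsc3 had 7, 7, 5 and 4 reads in WT and 2, 2, 2 and 0 in cKO. Its difference of -1.15 ± 0.26 on the deposited log2 scale, which understates changes at so few reads, passed limma (adjusted p = 0.022) but not without WT library 1 or 2 (differences of -1.08 and -1.05). The authors' deposited table gives a log2 fold change of -1.82 for it. Dsc1 and the desmogleins are not listed.

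Calsyntenins, which carry cargo on kinesin and organize synapses, split. Clstn2 held 6.24, 6.10, 6.20 and 6.20 log2 CPM in WT and 5.51, 5.36, 5.39 and 5.64 in cKO. It fell by 0.71 ± 0.07, to 0.610 of WT, with no overlap (limma adjusted p = 0.000426). Clstn1 held 9.96, 9.88, 9.81 and 9.72 in WT and 10.19, 10.25, 10.06 and 10.08 in cKO. It rose by 0.30 ± 0.07 (limma adjusted p = 0.027), a call lost without any 1 of WT libraries 2, 3 and 4 or cKO libraries 1 and 2 (differences of 0.26 to 0.31) and, at 0.20, with the libraries centred on their medians. Clstn3 is not listed. Of 8 genes of the proteases that shed cadherins and calsyntenins, 1 is listed, where 20.3% of all features tested are. This is the gamma-secretase subunit gene Aph1b, at -0.25 ± 0.08 (limma adjusted p = 0.091).

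Non-clustered protocadherins were higher where listed. Pcdh8, a delta-2 protocadherin known for its induction by synaptic activity, ranged from 1.37 to 1.73 log2 CPM in WT and from 1.91 to 2.43 in cKO. It rose by 0.60 ± 0.12 without overlap (limma adjusted p = 0.0145), on 167 reads over the WT group and 252 over the cKO group. The delta-1 protocadherin Pcdh9 held 7.13, 7.20, 6.95 and 7.15 in WT and 7.30, 7.41, 7.36 and 7.21 in cKO, a difference of 0.21 ± 0.07 that did not pass limma (adjusted p = 0.107). Pcdh1, of the same subfamily, held 6.89, 7.16, 7.08 and 6.96 in WT and 7.36, 7.37, 7.11 and 7.16 in cKO, with overlap and a difference of 0.23 ± 0.09 (limma adjusted p = 0.156). With the libraries centred on their medians, the differences of Pcdh9 and Pcdh1 were 0.11 and 0.13. The other 7 delta protocadherin genes are not listed.

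Regulators and effectors of the clustered protocadherins changed in small numbers. Of 23 genes known to act on their promoters, 4 are listed. The DNA methyltransferase gene Dnmt3a rose by 0.29 ± 0.06 (limma adjusted p = 0.0176), while Hdac2 (0.24), Wiz (-0.21) and Wapal (-0.14) did not pass limma. Ctcf and the cohesin genes are not listed. Of 15 signalling genes downstream of protocadherins 5 are listed and all passed limma, 4 lower and 1 higher. Over all features tested 20.3% are listed, and 65.0% of all listed genes passed limma. Wasf1 of the actin-nucleating WAVE complex fell by 0.32 ± 0.06, the kinase genes Rock2 and Ptk2 each fell by 0.30 ± 0.06, and Marcks rose by 0.24 ± 0.05.

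Most listed markers of other cerebellar cell types were lower alongside these members. Of 74 markers that are not those of granule neurons 47 are listed, 46 of them lower, with a median of -0.33. Over all features tested 20.3% are listed, 9.30% as lower. Limma passed 5 of 8 listed Purkinje, 5 of 8 interneuron, 3 of 5 astroglia and 3 of 6 endothelial markers. It passed 2 of 8 oligodendrocyte, 1 of 8 meningeal and 0 of 3 choroid plexus markers. Among all 2518 listed genes that were lower, 54.2% passed limma. The exception in direction was the microglia marker Ctss, higher by 0.41 and not past limma. The listed Purkinje cell markers added up to 8389 to 8881 CPM in WT and 7107 to 7619 CPM in cKO libraries, and the 8 listed interneuron markers to 1019 to 1136 and 865.5 to 968.9 CPM. Of the 6 listed granule neuron markers 4 were lower and 2 higher (Pax6 and Gabra6). Unlisted markers have no value, so whether a defining marker is at 0 cannot be read. The part of these shifts in the differences of the members was not tested.

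The annotated promoter windows of Fat1, Cdh8 and Celsr2 are shown because they belong to members that differed clearly and in opposite directions. The windows hold few, intermediate and many CpG. They are RefSeq sequences of assembly GRCm38.p6 that run from 250 bases before to 50 bases after an annotated start, 5′ to 3′ on the strand of the gene, with each CpG in capitals.
Fat1 promoter, chr8:44949958-44950257, plus strand: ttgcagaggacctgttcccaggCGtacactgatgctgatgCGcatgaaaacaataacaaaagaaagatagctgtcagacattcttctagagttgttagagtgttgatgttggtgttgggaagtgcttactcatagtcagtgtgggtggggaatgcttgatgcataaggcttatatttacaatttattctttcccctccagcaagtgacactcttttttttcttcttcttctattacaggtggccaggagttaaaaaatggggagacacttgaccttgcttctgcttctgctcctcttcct
Cdh8 promoter, chr8:99416422-99416721, minus strand: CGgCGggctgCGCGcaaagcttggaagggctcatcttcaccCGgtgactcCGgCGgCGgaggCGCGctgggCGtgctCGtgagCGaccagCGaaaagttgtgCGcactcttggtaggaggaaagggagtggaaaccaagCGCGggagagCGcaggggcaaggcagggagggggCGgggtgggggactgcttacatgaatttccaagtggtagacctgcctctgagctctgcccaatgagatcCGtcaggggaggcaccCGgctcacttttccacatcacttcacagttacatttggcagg
Celsr2 promoter, chr3:108415530-108415829, minus strand: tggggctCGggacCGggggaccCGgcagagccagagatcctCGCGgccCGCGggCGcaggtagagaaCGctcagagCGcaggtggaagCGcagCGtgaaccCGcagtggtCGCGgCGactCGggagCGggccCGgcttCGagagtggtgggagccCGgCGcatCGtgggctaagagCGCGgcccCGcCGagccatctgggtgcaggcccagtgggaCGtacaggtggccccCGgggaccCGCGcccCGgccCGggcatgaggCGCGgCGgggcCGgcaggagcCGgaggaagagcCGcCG
The window of Fat1, which fell, holds 2 CpG, that of Cdh8, which fell, 21, and that of Celsr2, which rose, 40. The Fat1 window holds a run rich in c and t that ends in ttacag and is followed by an ATG. These letters resemble the end of an intron before a coding exon, so its count may not be that of a promoter. Whether this annotated start is used in cerebellum was not tested. The median over all 32851 promoters of the table is 7. A promoter was found for 12 of the 34 members. With a single window per gene, the 5 higher ones had a median of 38 CpG and the 7 lower ones 18. The lower median is that of the Cdh7 window used, and other annotated Cdh7 windows hold 19 and 4. It also includes the Fat1 window. The sets overlapped: Clstn2, which fell, had 43, and Pcdh8, which rose, had 14. A CRE (TGACGTCA, searched on both strands) was found once among the 12, in the window of Clstn2, and in 1.79% of all promoters. These windows show which letters stand near an annotated start and nothing about factors bound there.

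Gene span differed between higher and lower members outside the clusters. The 13 lower ones had a median span of 153.4 kb in RefSeq, with 9 of them over 100 kb, and the 7 higher ones of 35.4 kb, with 2 over 100 kb. Long genes were more often lower over the whole table too. Of 834 listed protein-coding genes with a span over 100 kb, 62.8% were lower, against 47.3% of those at all spans. Cdh8, Clstn2, Fat3 and Cdh18 are among the longest members, and Pcdh9, of 879.1 kb, was higher by 0.21. The Pcdhb genes span 2.34 to 3.79 kb and were all lower.

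**Figure D4:**
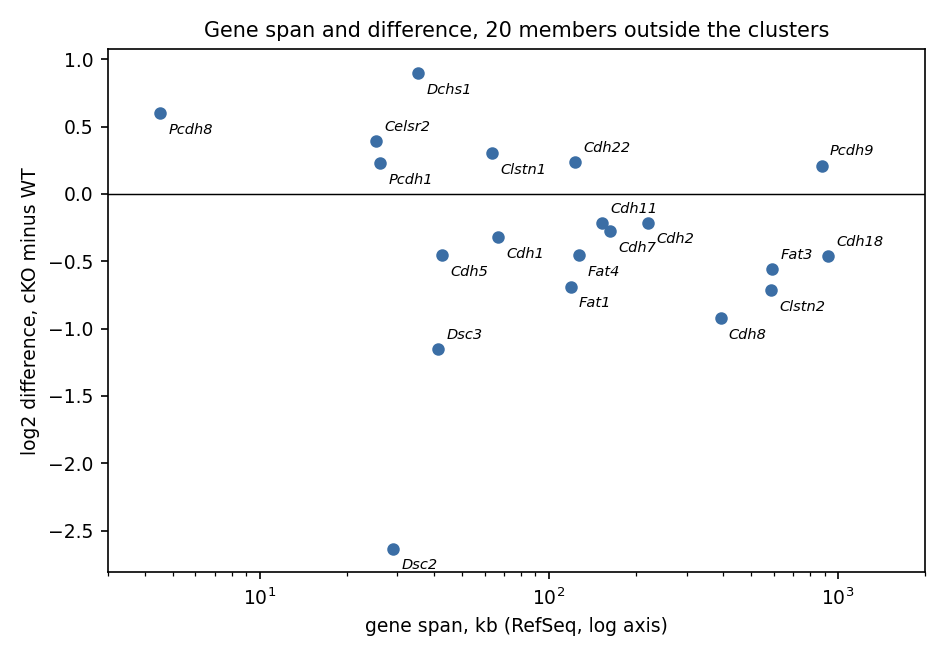
Gene span in kb (horizontal axis, log scale, RefSeq) and log2 difference, cKO minus WT (vertical axis), for the 20 listed members outside the clusters, 1 point per gene. Of the 11 genes over 100 kb, 9 lie below 0, and the lowest point, Dsc2, spans 28.9 kb.

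In the comparison of rotarod training with rest, both listed members were higher after training. The authors' test called 2.06% of 26913 features as higher. Limma, fitted to the listed genes only, passed 113 of these genes as higher. This number is 0.420% of the features tested and includes no member. The rest libraries are numbered 1, 2, 5 and 6 and the rotarod libraries 3, 4, 7 and 8 in the table. Fat1 held 9.14, 8.73, 8.70 and 8.71 log2 CPM at rest and 8.96, 9.20, 9.25 and 9.35 after rotarod. Rest library 1 stood apart from the other 3 and lay within the rotarod range. The difference was 0.37 ± 0.12 and did not pass limma (unadjusted p = 0.0171, adjusted p = 0.548), and was 0.48 without rest library 1. The authors' deposited table gives it a log2 fold change of 0.43 with an adjusted p of 0.0111.

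Pcdh1 held 7.44, 7.14, 7.22 and 7.16 log2 CPM at rest and 7.44, 7.56, 7.65 and 7.52 after rotarod. Rest library 1 was again the highest at rest, level with the lowest rotarod library to within the 2 decimals given. The difference of 0.30 ± 0.09 did not pass limma (unadjusted p = 0.00719, adjusted p = 0.272), and the authors' deposited table gives 0.34 with an adjusted p of 0.00448. No Pcdhb gene is listed in this comparison. The tables were normalized separately and come from different libraries. Fat1 was thus lower in cKO than in WT and higher in the rotarod than in the rest libraries, and Pcdh1 was higher in both, where 3 of these 4 differences passed the authors' test alone and only that of Fat1 in cKO also passed limma.

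**Figure D5:**
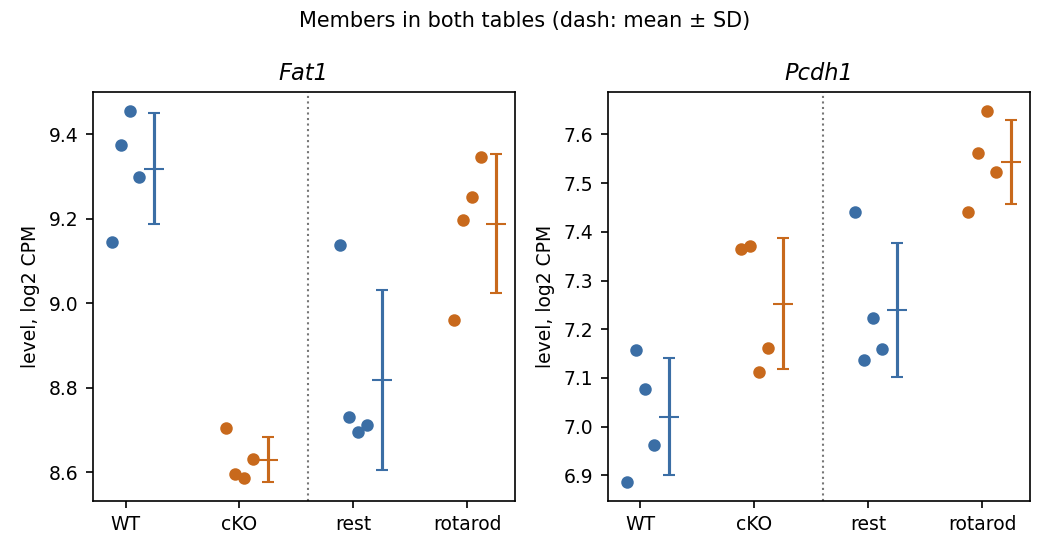
Level in log2 CPM (vertical axis) of Fat1 and Pcdh1 in each WT, cKO, rest and rotarod library (4 per group), with the mean and SD beside the points; the dotted line separates tables that were normalized separately. The 4 cKO values of Fat1 lie below all WT values. The highest rest value is that of library 1 in both genes, and for Fat1 it stands apart from the other 3.

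Among partners in the rotarod table, Jup (plakoglobin, a catenin of adherens junctions and desmosomes) was 0.44 ± 0.08 higher (limma adjusted p = 0.0597) and the histone methyltransferase gene Setdb1 0.24 ± 0.06 higher (limma adjusted p = 0.172). The planar polarity, shedding and signalling lists have no listed gene there. Of 12 endothelial markers 2 are listed, both higher: Slc2a1 by 0.71 ± 0.08, past limma (adjusted p = 0.00894), and Flt1 by 0.38 ± 0.14. Of 12 meningeal markers 4 are listed, all lower and 0 past limma. Of 26913 features tested, 555 (2.06%) are listed as higher and 353 as lower, and limma passed 18.4% of all listed genes. The part of these markers in the differences of Fat1 and Pcdh1 was not tested.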

How the data were processed

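The tables give, per the file headers, log2 CPM per library and the authors' comparison of the groups. The submitters' processing notes name Bowtie, mm9 and edgeR. Versions and the read counting are not stated there. In both tables the deposited log2 values share a floor at 0 reads, 0.137 and 0.130 CPM. Every low value, up to 20 reads, was a whole number of reads to within 0.1, which gave the depths and reads printed. The deposited adjusted p-values times rank over p gave 27080 and 26913 features tested. Repeated lines were removed (5557 to 5508 and 913 to 908). The authors' deposited log2 fold changes are quoted as theirs.

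The log2 values of all listed genes were fitted with limma 3.58.1 (R 4.3.3) without covariates, and p was adjusted over all features tested (Benjamini-Hochberg). The variance prior rests on genes the authors called. The fit was also run on simulated data of the same spread, with adjustment over the listed genes only. That run did not cover the adjustment over all features tested or the prior selection of genes. Members, lists and rules were chosen with earlier results of these data known. Per-library values are given for the 6 most abundant Pcdhb genes, the listed gamma gene, members of the rotarod table and the 8 highest and 8 lowest other members at or above the members' median abundance. Chd4 is given by range, and up to 4 genes of each partner list, those with the largest differences, by difference. Other members are given by range or chosen after seeing values. Sequences, spans and gene order are from RefSeq GRCm38.p6, and no mm9 coordinate was used. Read sums, over the libraries of a group or over genes, are given without an error. The deposited region lists were not used here.

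Alternatives were another adjustment, centring, a trend, an abundance limit, a pseudocount of 1 CPM, stricter thresholds, libraries 1 and 2 or 3 and 4 alone, leaving out each library, and a replicate block.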

Additional observations from a re-analysis of the deposited data

Results flagged for a closer look

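In groups of 4 libraries, 7 of the 72 groups tested had a library farther from the other 3 than Dixon's limit for 4 values. Chance flags about 1 in 20 groups. In cKO, Dsc2 stood at -1.56 log2 CPM in library 2 (3 reads) and at -0.24 to -0.09 in the others. Dsc3 stood at -2.87 in cKO library 4 (0 reads) and at -1.88 to -1.82 in the others. Both are low in reads, so that 2 reads decide the distance for Dsc3. Fat3 stood at 5.52 in cKO library 1 and at 5.83 to 5.86 in the others, and Cdh5 at 4.0 in cKO library 1 and at 3.82 to 3.84 in the others. Pcdhb4 stood at 2.28 in cKO library 4 and at 2.15 to 2.16 in the others. Pcdhb11 stood at 2.66 in WT library 1 and at 2.87 to 2.90 in the others. At rest, Fat1 stood at 9.14 in library 1 and at 8.70 to 8.73 in the others.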

How the results depend on the processing

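No member changed direction under any alternative. The count of members past limma in cKO, 23, was 16 to 20 when a library was left out. It was 11 when only genes at or above the median abundance were tested, 11 at an adjusted p under 0.01, 12 at a log2 difference of at least 0.5, and 3 and 4 within libraries 1 and 2 and within libraries 3 and 4, where each group has 2 libraries. The count of Pcdhb genes, 7, was 4 to 8 when a library was left out. It was 13 with adjustment over the listed genes alone and 13 in the authors' test, 11 with the libraries centred, 4 at a difference of at least 0.5, 2 at an adjusted p under 0.01, 1 within libraries 1 and 2, 0 within libraries 3 and 4, and 0 at or above the median abundance of the listed genes, which no Pcdhb gene reaches. The gap between the Pcdhb and the other medians was -0.24 to -0.11 when a library was left out and -0.10 among members at or above their median abundance, where it sets 1 Pcdhb gene, Pcdhb17, against the median of 16 others. In the rotarod comparison 0 members passed limma, 2 at an unadjusted p under 0.05, 2 with adjustment over the listed genes alone and 2 in the authors' test. With the library number as a replicate block, 18 members and 6 Pcdhb genes passed. The calls of Cdh2, Cdh7, Cdh22, Fat4, Pcdhb3 and Pcdhb9 were lost in that fit, and Pcdhb21 gained one. Same-numbered WT and cKO libraries had deviations that correlated at 0.10, 0.16, 0.13 and 0.08. Correlations between libraries of unlike number were not computed, so whether the numbers pair the libraries was not settled. The main fit did not pair them. No block could be fitted for the rotarod table, whose columns match a group only. For single members in cKO, 44 of 272 values with a library left out lost their call and 4 gained one, and 47 of 252 under the other settings lost it and 20 gained it. The cause of these shifts was not tested. The subsets also hold fewer libraries, and the part of that was not separated. Genes with under about 20 reads, Dsc3 above all, are limited by depth.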
